A study of Heterocephalus glaber with 9 samples.

Results

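Cytosolic ribosomal proteins were followed in the liver of young and old naked mole-rats, a small African rodent with an unusually long life. They were taken by gene symbol, as RPL or RPS with a number and an optional letter or paralog suffix, or as RPSA, RPLP0, RPLP1 or RPLP2, without the RPS6K kinases. This gave 81 of the 16339 gene rows of the count table, 49 of the large and 32 of the small ribosomal subunit. The rule takes in paralogs such as RPL7L1 and RPS27L, and it leaves out ribosomal proteins under other symbols, such as FAU, GNB2L1 and RPL36AL, which are given apart. RPL39 and RPL23A were not analysed here.

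The RNA came from whole liver of male animals, 6 young ones and 3 old ones, with 1 library per animal. By the labels the young animals were 2.7, 2.8, 3.4, 3.7, 3.8 and 4.1 years old, and the old non-breeders were A (20 years), B (30 years) and C (20 years), although the methods put the lowest age of the old animals above that of A and C. No strain or treatment is labelled, and the reproductive status of the young animals is not labelled either. The study asked whether genes under positive selection in long-lived rodents change in expression with age.

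A ribosome consists of a small subunit, which reads the mRNA, and a large subunit, which joins the amino acids. Each carries its own set of proteins on a core of ribosomal RNA, and a complete ribosome holds most of these proteins once, so that cells make them in matched amounts. In mammals their mRNAs begin with a terminal oligopyrimidine tract, called TOP, through which mTOR signalling and the RNA-binding protein LARP1 control their translation and stability. Liver is rich in ribosomes, because hepatocytes secrete much of the protein of blood plasma.

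The libraries held between 14541856 and 20464409 counts in the young and between 15176226 and 20048731 in the old livers. Summed levels of 20 hepatocyte markers, all detected, were 192820 to 295799 CPM (counts relative to the library total, scaled with TMM factors) in the young livers, 169365 in B, 142712 in C and 57206 in A. ALB (albumin) took 1.41% of the counts of A, against 6.99% to 14.8% in the others. The marker sum weighs abundant mRNAs like ALB most. Of the 20 markers 16 had a negative fold change (median log2 value -0.37, and -0.22 without A). For 3 every old liver was below every young one, and for 0 above. With all livers 1 was called lower and 0 higher. Without A and the 4.1-year liver 2 were called lower and 3 higher, where 11.7% and 14.2% of all genes were. The 12 endothelial markers that were detected of 13 (CLEC4M was at 0) summed to 1803 CPM in A and to 428 to 761 CPM in the other 8 livers. Their directions were mixed, with 6 of 12 fold changes negative and a median log2 value of -0.03. Of them 3 were called higher and 1 lower, where 11.7% and 3.65% of all genes were. The median Spearman correlation with the other livers of the same group over all genes was 0.847 in A and 0.914 in the 4.1-year liver, 0.915 in B and 0.921 in C, and 0.971 to 0.980 in the other 5 young livers. A thus had the lowest value of all livers and the 4.1-year liver the lowest of the young, and the main results are also given without them. An old liver had only the other old livers as partners, so the values of B and C take in A and are not comparable with those of the young. Between B and C the counts differed least of all library pairs (chi-square per degree of freedom 27.62). Kupffer cell markers (12 of 13 in the table) summed to 101 CPM in A, 616 in B, 549 in C and 285 to 414 CPM in the young livers, stellate cell markers (12 of 12) to 115 to 188 CPM in the old and 240 to 343 CPM in the young livers, and erythroid markers (7 of 10) to 56.1 to 97.9 CPM in the old and 214 to 900.4 CPM in the young livers, highest in the 4.1-year liver. For all 12 stellate cell markers the fold change was negative (median log2 value -0.94, and -0.72 without A). Of them 4 were called lower, where 3.65% of all genes were. Their part in the ribosomal protein results was not tested. Cholangiocyte markers (7 of 8) summed to 217 to 339 CPM in the old and 285 to 509 CPM in the young livers, and lymphocyte markers (14 of 14) to 110 to 310 CPM and 146 to 398 CPM. The labels carry 1 name prefix for all young livers, another for B and C, and the word merged for A. The titles of all young livers also carry the word re-used, and those of the old livers do not. Age and whatever these prefixes and words stand for cannot be told apart.

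The part of the counts that fell on the ribosomal protein rows overlapped between the groups. Their share was 1.34% to 2.30% in the young livers (1.65% ± 0.365, mean and SD, n = 6), with the highest value in the 4.1-year liver. It was 0.784% in A, 1.55% in B and 1.86% in C (1.40% ± 0.556, SD, n = 3). Only A lay below the young range, and B and C lay inside it. The difference in mean share, old minus young, was -0.251 percentage points with all livers, 0.0569 without A and 0.186 without A and the 4.1-year liver. Large subunit rows held 1.45 to 1.61 counts per small subunit count in the young livers, 1.42 in both B and C, and 1.89 in A. This ratio was therefore highest in A and, among the young, in the 4.1-year liver. The hepatocyte marker sum was lowest in A as well, while the 4.1-year liver combined the highest ribosomal protein share with the lowest marker sum of the young livers, and the part of cell composition was not tested. In bulk tissue, fewer cells of a type and less RNA per cell cannot be told apart.

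**Figure D1:**
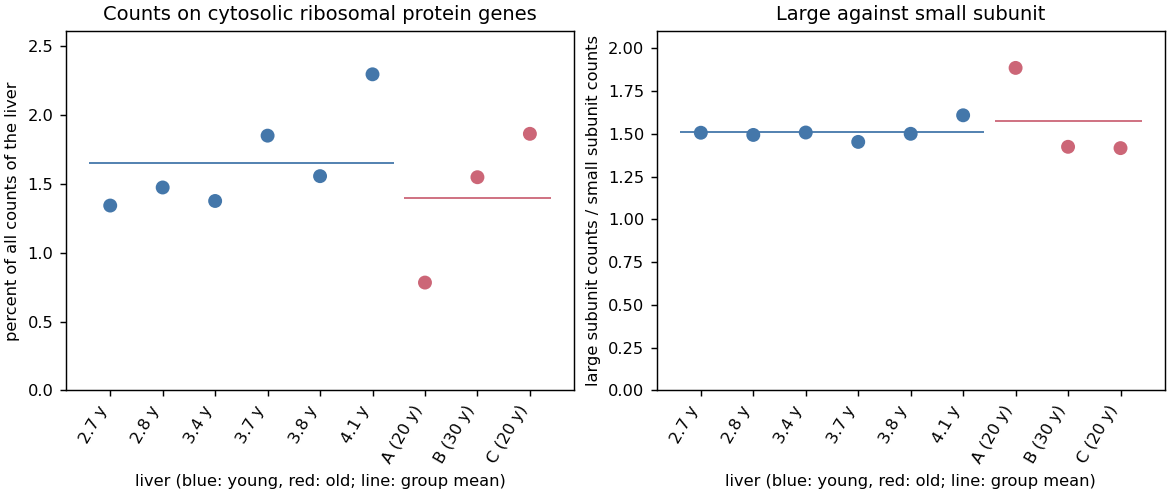
Share of each liver's counts that fell on ribosomal protein rows (left, percent) and ratio of large to small subunit counts (right), 1 point per liver, with young livers in blue by age, old livers in red and a line at each group mean. A has the lowest share, 0.784%, and the highest ratio, 1.89, while B and C lie within the young range of the share.

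Per gene, most ribosomal protein mRNAs had a lower fitted level in old livers, but few differences exceeded the spread between animals. Of the 81 rows, 79 passed the filter on low counts and were tested with edgeR among 12277 genes, with an adjusted p (false discovery rate, FDR) of at most 0.1 as the threshold. RPL9 and RPL4 fell in old livers, 2.53% of the members tested, where 3.65% of all genes tested fell. No member rose at the adjusted threshold of edgeR, while 11.7% of all genes rose. At an unadjusted p under 0.05 edgeR gave 7 members, all of them lower, but the share of all genes at that level was not counted. Calls depended on the tool. DESeq2 gave 7 members lower and 0 higher, where it called 8.72% of all genes lower and 14.5% higher. With limma voom and quality weights 8 members were lower and 2 higher (RPLP1 and RPS29), where 16.8% of all genes were lower and 20.5% higher.

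The direction was more uniform than the calls, but members shift together within a liver and are not replicates. A was the lowest of all 9 livers for 72 of the 79 members. The log2 fold change, old against young, was negative for 78 of the 79 members (98.7%), against 49.2% of all genes tested, and RPLP1 was the exception. Its median over the members was -0.57, against 0.02 over all genes. The large subunit (47 members, -1.14 to 0.07) had a median of -0.57 and the small subunit (32 members, -0.89 to -0.12) of -0.56. The median standard error of a member was 0.37. With library totals alone in place of TMM scaling, the median of all genes moved to 0.31, that of the members was -0.26, and 69 members stayed negative. The TMM factors were 0.840 to 0.986 in the young and 1.12 to 1.19 in the old livers, which lowers the CPM of the old livers against their share of counts. Library totals alone were not tried with livers left out. Without A, 71 members were negative with a median of -0.25, although the mean share of counts was then higher in the old livers. In this fit edgeR called none (lowest FDR 0.175, 3 members at an unadjusted p under 0.05), and 1.35% of all genes were called lower and 2.13% higher. Groups then did not overlap for 8 members below, against 11.0% of all genes, and for 0 above, against 13.3%. Without the 4.1-year liver 72 members were negative with a median of -0.45. There edgeR called RPL21, RPL4 and RPL9 lower (3.80% of members, against 7.06% of all genes) and none higher (against 17.0% of all genes). At an unadjusted p under 0.05 it gave 0 members higher in this fit, and the share of all genes at that level was counted in no fit.

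**Figure D2:**
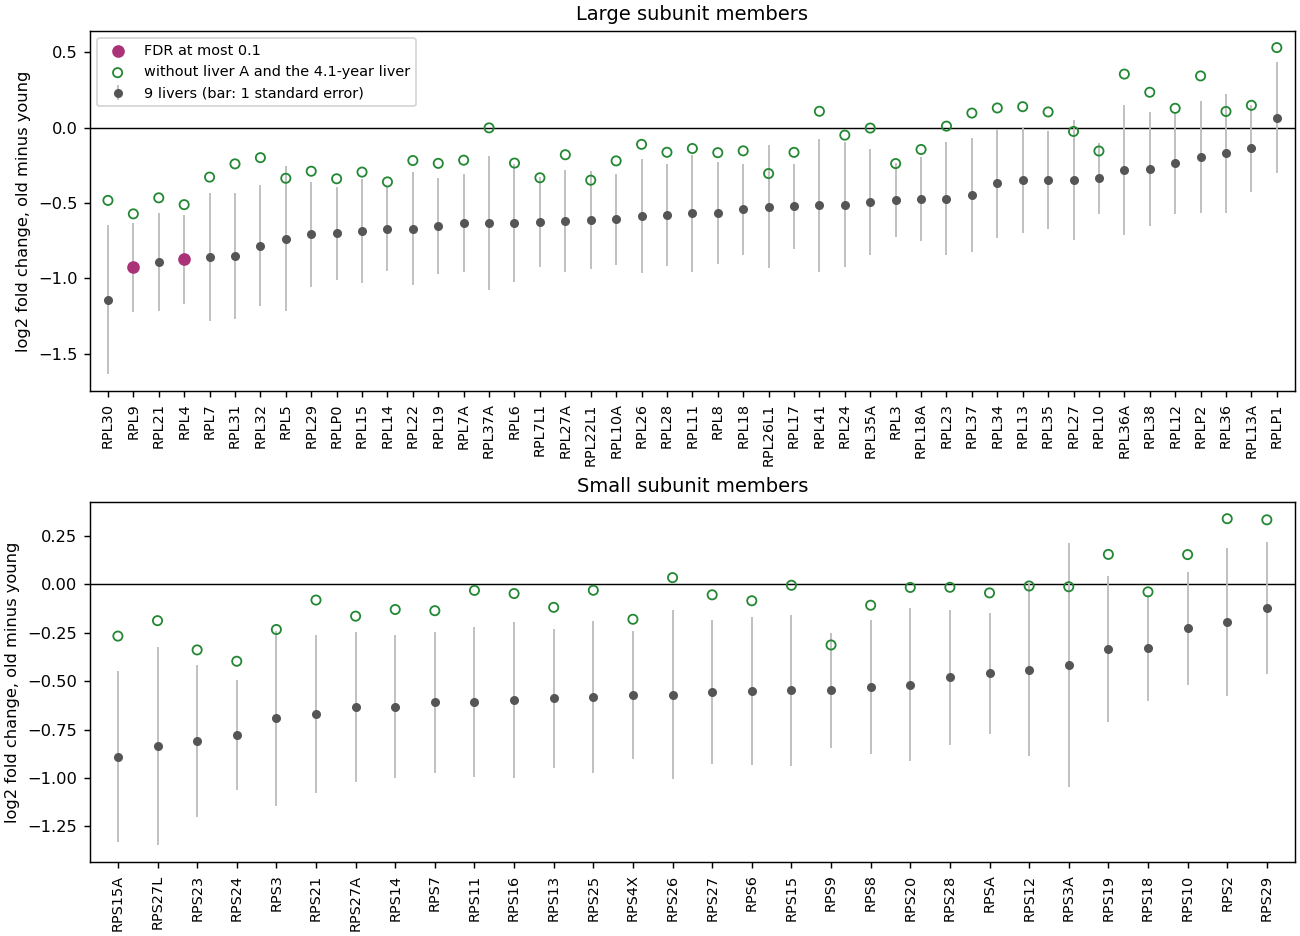
Log2 fold change, old against young, of 77 of the 79 members tested, by subunit and in order of size, with 1 standard error (filled points, 9 livers) and the same value without A and the 4.1-year liver (open circles). Filled points lie below 0 for every member shown but RPLP1, RPL9 and RPL4 in purple pass the threshold, and the open circles mostly lie closer to 0.

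RPL9 and RPL4 are both proteins of the large subunit, RPL9 near its stalk and RPL4 in the wall of the exit tunnel of the growing chain. RPL9 was at 30.7 CPM in A, 58.0 in B and 71.2 in C, and at 81.3 (lowest), 101.2 (median) and 127 CPM (highest) in the young livers. Every old liver was below every young one, and B and C were also low. The log2 fold change was -0.93 (SE 0.30, edgeR FDR 0.0809, lower in 3 of 3 old livers). RPL4 was at 131 CPM in A, 225 in B and 261 in C, against 299, 366 and 532 CPM in the young livers. Again the groups did not overlap, with A lowest and the 4.1-year liver highest. The log2 fold change was -0.87 (SE 0.29, edgeR FDR 0.0905). Both calls were near the threshold: without A the edgeR FDR was 0.175 for RPL9 and 0.209 for RPL4, without B 0.104 and 0.115, and without any single young liver other than the 4.1-year one it was 0.111 to 0.152 and 0.119 to 0.159.

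Altogether 8 members had every old liver below every young liver (10.1% of those tested, against 8.01% of all genes), and 0 had every old liver above (9.83% of all genes). The other members of this kind were RPL30, RPL21, RPL14, RPL3 and RPL7L1 of the large subunit group and RPS24 of the small. RPL30, which lies at the interface of the subunits, was at 15.1 CPM in A, 79.1 in B and 88.0 in C, against 95.4, 125 and 222 CPM as lowest, median and highest young level. A was far below all other livers and the 4.1-year liver far above them. Its log2 fold change of -1.14 (SE 0.49, edgeR FDR 0.155) was the most negative among the members. RPL21 was at 47.3 CPM in A, 76.9 in B and 85.1 in C, against 94.0, 119 and 217 CPM in the young livers (log2 fold change -0.89, SE 0.32, edgeR FDR 0.109). It missed the threshold narrowly, and it passed in the fit without the 4.1-year liver.

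RPL14 was at 59.7 CPM in A, 115.8 in B and 135 in C, and at 142, 163 and 194 CPM in the young livers (log2 fold change -0.67, SE 0.28, edgeR FDR 0.142). RPL3, which reaches towards the catalytic centre, was at 185, 327 and 332 CPM in A, B and C, and at 344, 403 and 438 CPM in the young (log2 fold change -0.48, SE 0.25, edgeR FDR 0.216). In both genes C lay just under the lowest young liver. RPS24, a small subunit protein mutated in some families with Diamond-Blackfan anaemia in humans, was at 37.9 CPM in A, 73.4 in B and 65.6 in C, against 81.2, 92.1 and 149 CPM in the young livers (log2 fold change -0.78, SE 0.28, edgeR FDR 0.109). All 3 old livers were low and the 4.1-year liver was well above the other young ones. Without A the log2 fold change was -0.39 for RPL14, -0.25 for RPL3 and -0.54 for RPS24.

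**Figure D3:**
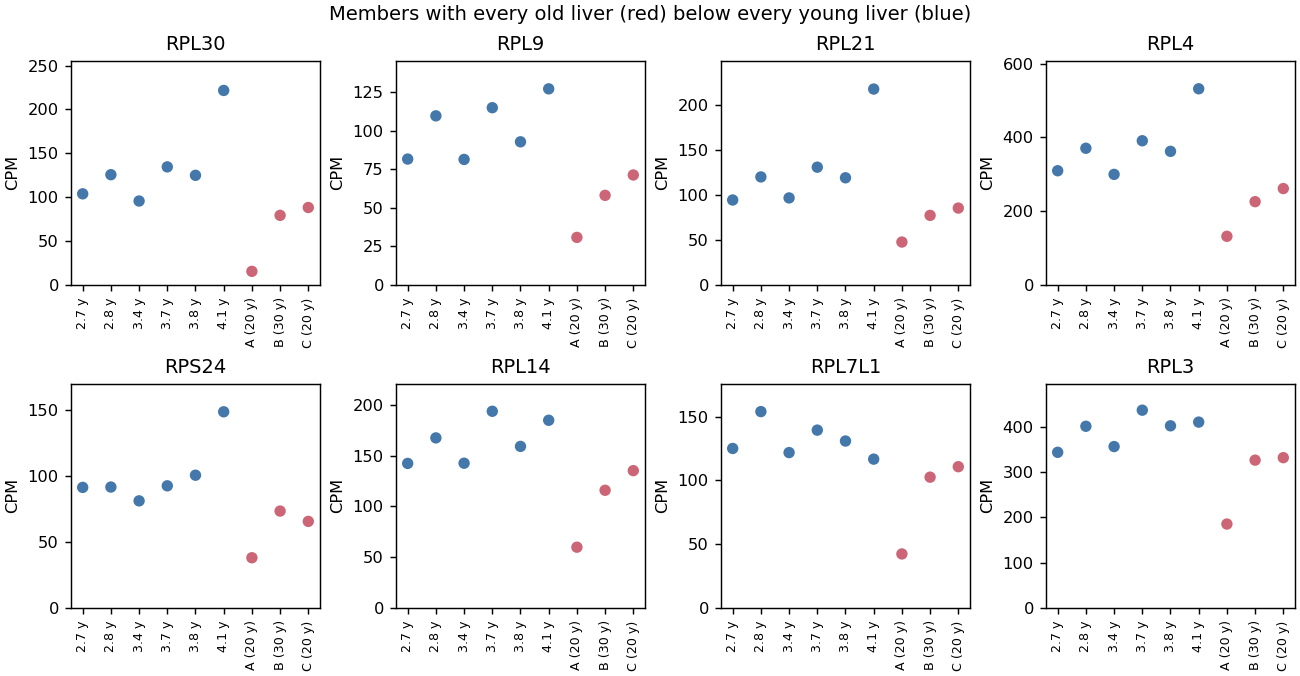
CPM of the 8 members with every old liver (red) below every young liver (blue), 1 point per liver and a linear axis from 0 for each gene. A is the lowest liver in each panel, and the 4.1-year liver is the highest for RPL30, RPL9, RPL21, RPL4 and RPS24 but the lowest young liver for RPL7L1.

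Members with known roles outside the ribosome did not pass the test. RPL5 and RPL11 form a complex that binds MDM2, the ligase of p53, when ribosome assembly fails. RPL5 was at 13.7 CPM in A, 86.9 in B and 92.2 in C, against 78.2, 105 and 132 CPM in the young livers, of which the 4.1-year liver was the lowest (log2 fold change -0.74, SE 0.48, edgeR FDR 0.314). RPL11 was at 63.4, 241 and 278 CPM in A, B and C, against 240.2, 293 and 332 CPM in the young (-0.57, SE 0.39, edgeR FDR 0.337). B and C lay inside the young range in both genes, and A lay far below it. Without A the log2 fold change was -0.26 for RPL5 and -0.15 for RPL11. RPL13A, which in human monocytes leaves the ribosome to silence inflammatory mRNAs, was at 225, 254 and 309 CPM in A, B and C, within the young range of 198 to 463 CPM (log2 fold change -0.14, SE 0.29, edgeR FDR 0.769).

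Further large subunit members did not pass either. RPL10, which completes the large subunit before it can join the small one, was at 167, 191 and 208 CPM in A, B and C, against 183, 223 and 318 CPM in the young livers (log2 fold change -0.33, SE 0.24, edgeR FDR 0.351). RPL7 was at 85.2 CPM in A, 335 in B and 406 in C, against 395, 477 and 666 CPM in the young (-0.86, SE 0.42, edgeR FDR 0.201). In RPL7 only C reached the young range. RPL41, a very short peptide, was at 279, 396 and 520 CPM in A, B and C, and at 362 to 491 CPM in 5 young livers but 1296 CPM in the 4.1-year liver (-0.52, SE 0.44, edgeR FDR 0.442). RPL36 was at 125, 96.5 and 105 CPM in A, B and C, and at 80.9 to 111 CPM in 5 young livers but 269 CPM in the 4.1-year liver (-0.17, SE 0.39, edgeR FDR 0.789). For RPL36 A was the highest old liver, whereas it was the lowest of the 3 for 75 of the 79 members. Without A the log2 fold change of RPL7 was -0.43 and that of RPL10 -0.25, and without the 4.1-year liver that of RPL41 was -0.09 and that of RPL36 0.23.

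Of the small subunit, RPS6 is the substrate of S6 kinase downstream of mTOR. Its level was 109 CPM in A, 385 in B and 450.2 in C, against 385, 443 and 553 CPM in the young livers (log2 fold change -0.55, SE 0.38, edgeR FDR 0.345). RPS3, which also acts in DNA repair, was at 39.3, 213 and 241 CPM in A, B and C, against 227, 263 and 323 CPM (-0.69, SE 0.45, edgeR FDR 0.317). B was close to the lowest young liver in both genes, C lay inside the young range, and A was far below. RPS27A, made as a fusion with ubiquitin, was at 25.6, 93.2 and 107 CPM in A, B and C, against 96.2, 117 and 139 CPM in the young (-0.63, SE 0.39, edgeR FDR 0.287). RPSA, which doubles as a laminin receptor at the cell surface, was at 52.9, 118 and 132 CPM, against 109, 129 and 189 CPM (-0.46, SE 0.31, edgeR FDR 0.332). A was again far below the young range, B was just under it for RPS27A, and the other values of B and C lay inside it. Without A the log2 fold change was -0.14 for RPS6, -0.23 for RPS3, -0.22 for RPS27A and -0.15 for RPSA.

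RPS19, the gene most often mutated in human Diamond-Blackfan anaemia, was at 68.1 CPM in A, 212 in B and 247 in C, against 163, 217 and 297 CPM in the young livers (log2 fold change -0.33, SE 0.38, edgeR FDR 0.568). Without A its sign turned, with a log2 fold change of 0.05. RPS29 was at 72.5 CPM in A, 216 in B and 232 in C, against 152, 186 and 243 CPM (-0.12, SE 0.34, edgeR FDR 0.831), and without A it was 0.25. B and C were thus above the young median of RPS29, and A was below the whole young range.

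The stalk of the large subunit, which recruits the translation factors, is built of RPLP0 at its base and of dimers of RPLP1 and RPLP2. RPLP0 was at 193 CPM in A, 443 in B and 447 in C, against 432, 590.2 and 710.3 CPM in the young livers (log2 fold change -0.70, SE 0.31, edgeR FDR 0.157). RPLP2 was at 129, 214 and 258 CPM, against 156, 189 and 446 CPM (-0.19, SE 0.37, edgeR FDR 0.741). RPLP1 was at 277, 347 and 445 CPM, against 209, 286 and 671 CPM, and it was the only member with a positive log2 fold change (0.07, SE 0.37, edgeR FDR 0.914). Base and dimer proteins thus differed in order between livers. Within a liver there were 0.372 to 0.587 RPLP1 counts per RPLP0 count in 5 young livers and 0.945 in the 4.1-year liver, against 1.43 in A, 0.783 in B and 0.996 in C. The RPLP2 ratio was 0.305 to 0.365 in the same 5 young livers, 0.628 in the 4.1-year liver, and 0.668, 0.482 and 0.577 in A, B and C. Both ratios were higher in each old liver than in the 5 young livers, and the 4.1-year liver lay among the old ones. Without A the log2 fold change was -0.40 for RPLP0, 0.04 for RPLP2 and 0.22 for RPLP1. The ratios are set by the levels of these genes and were not tested.

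**Figure D4:**
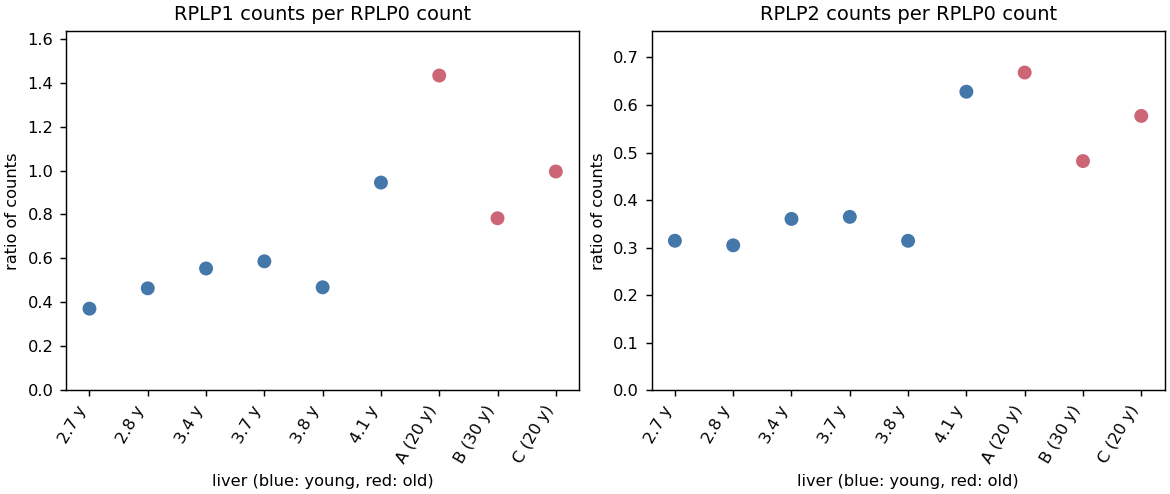
Counts of RPLP1 (left) and RPLP2 (right) per RPLP0 count, 1 point per liver, young in blue by age and old in red, with axes from 0. The 5 youngest livers lie at 0.372 to 0.587 (RPLP1) and 0.305 to 0.365 (RPLP2), and the 4.1-year liver lies among the old ones.

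All 4 paralogs that were tested had negative log2 fold changes, and none passed the threshold. RPL7L1, a nucleolar relative of RPL7 that acts in ribosome assembly, was at 42.2 CPM in A, 102 in B and 111 in C, against 117, 128 and 154 CPM in the young livers (log2 fold change -0.62, SE 0.30, edgeR FDR 0.187). RPL22L1 was at 26.1, 24.6 and 27.6 CPM in A, B and C, against 27.3, 33.6 and 73.3 CPM (-0.61, SE 0.33, edgeR FDR 0.231). C lay inside the young range of RPL22L1, and A was level with B and C. Its counts were 0.188 to 0.407 of those of RPL22 in the young livers, 0.702 in A, 0.239 in B and 0.226 in C. RPS27L, a p53 target in human cells, was at 79.9, 85.5 and 101 CPM in A, B and C, and at 84.9 to 128 CPM in 5 young livers but 419 CPM in the 4.1-year liver (-0.83, SE 0.51, edgeR FDR 0.289, and -0.26 without the 4.1-year liver). RPL26L1 was low, at 0.67, 2.11 and 1.76 CPM in A, B and C and 1.19 to 2.95 CPM in the young (-0.52, SE 0.41, edgeR FDR 0.398). Without A the log2 fold change was -0.30 for RPL7L1, -0.61 for RPL22L1 and -0.18 for RPL26L1. RPL10L had no count except 2 in A, and RPL3L, a muscle form, had 0 to 6 counts per liver, so neither was tested. Reads that fit a paralog or pseudogene equally well were not kept by the mapping, which makes the levels of close copies uncertain.

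Members also shifted against each other. Each member's log2 CPM was set against the mean of all 79 members in the same liver, a scale on which the family is centred on 0 in every liver. Every old liver was below every young one for 4 members, among them RPL30, RPL7 and RPL9 (5.06% of members, against 0.741% of all genes on the same scale). RPL13A and RPS10 had every old liver above (2.53%, against 17.1%). All other genes move up on this scale where the family is low, so these percentages over all genes are no measure of shifts within the family. RPL30 had a difference of -0.80 on this log2 scale, RPL5 -0.49 and RPL7 -0.48, while RPLP1 had 0.78, RPL36 0.60 and RPL13A 0.54. RPL9 was at -1.05 in A, -1.30 in B and -1.23 in C relative to the family, and at -1.05 to -0.72 in the young livers, with A and the 4.1-year liver close together. RPL13A was at 1.81, 0.82 and 0.88 in A, B and C, and at 0.47 to 0.81 in the young livers.

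With B and C set against the 5 young livers of 2.7 to 3.8 years, more members parted from the family. Groups part more easily with fewer livers and without those that stood apart, so the rise in number alone is no result. By CPM, 19.3% of all genes then lay below and 20.6% above, against 8.01% and 9.83% with 9 livers. Percentages over all genes on the relative scale are again no measure of shifts within the family. On the relative scale 15 lay below (19.0% of members, against 9.63% of all genes), 12 of the large and 3 of the small subunit. Among them were RPL4, RPL5, RPL6, RPL7, RPL9, RPL14, RPL15, RPL21, RPL29, RPL30, RPL31, RPL32, RPS3 and RPS23. Above lay 19 (24.1%, against 19.2%), 12 large and 7 small, among them RPLP1, RPLP2, RPL13A, RPL36, RPL41, RPS19 and RPS29. RPLP1 had the difference of 0.64 and RPL9 of -0.47, against a standard deviation among the 5 young livers of 0.10 and 0.06.

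In the same 7 livers edgeR called RPL4, RPL9, RPL21, RPL30 and RPS24 lower (6.33% of members, against 11.7% of all genes) and RPLP1 higher (1.27%, against 14.2%). The log2 fold change was -0.51 for RPL4 (SE 0.16, edgeR FDR 0.0545), -0.57 for RPL9 (SE 0.18, FDR 0.0553), -0.47 for RPL21 (SE 0.16, FDR 0.0744), -0.48 for RPL30 (SE 0.16, FDR 0.0679) and -0.40 for RPS24 (SE 0.12, FDR 0.0575). For RPLP1 it was 0.53 (SE 0.20, edgeR FDR 0.0942). The median over the members was -0.13, and 61 of them were negative, so that the uniform direction seen with 9 livers was weaker here. More single members passed, as did more of all genes. The mean share of counts, without TMM scaling, was by contrast higher in these old livers. Groups did not overlap for 9 members below (11.4%, against 19.3% of all genes) and for 1 above, RPS29 (1.27%, against 20.6%).

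The livers that stood apart differed from their groups in opposite directions for the family as a whole. A was the lowest of all 9 livers for 72 of the 79 members, and its level was a median 0.419 times the mean of B and C, against 0.995 over all genes. The 4.1-year liver was the highest young liver for 62 members, with a median of 1.52 times the mean of the other 5, against 1.02 over all genes. B and C together were at a median 0.914 times those 5 young livers, with a range of 0.673 to 1.45. The members were thus spread more widely in A and the 4.1-year liver than between B and C and the 5 young ones.

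The departures of single members from the family mean were positively correlated between these livers. Across the 79 members, the departure of A from B and C and that of the 4.1-year liver from the other young had a Pearson correlation of 0.69 and a Spearman correlation of 0.65 (0.55 and 0.49 across all 12277 genes). The points share their libraries, and genes are not independent replicates. The standard deviation of the departures was 0.71 in A and 0.57 in the 4.1-year liver on the log2 scale, and 0.21 for B and C against the 5 young. RPS3A, chosen like the other extremes here after its values were seen, was at 5.42 CPM in A, 81.6 in B and 89.7 in C, and at 39.9 CPM in the 4.1-year liver, the lowest young one, against 83.4 as young median. It was the lowest member relative to its group in both livers, at 0.0633 times B and C in A and 0.462 times the other young in the 4.1-year liver. At the other end RPL36 in A was 1.25 times the mean of B and C and RPS27L in the 4.1-year liver 3.95 times that of the other young.

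Of the 10 members under 0.25 times B and C in A, 6 were also below the mean of the other 5 young livers in the 4.1-year liver (among them RPL5, RPL6, RPS3, RPS3A and RPS12). None of the 10 was among the 22 members over 2 times that mean there. Per RPL5 count there were 0.772 to 0.863 RPL36 counts in 5 young livers, 1.11 in B and 1.14 in C, but 3.44 in the 4.1-year liver and 9.17 in A. The row MTRNR2L4, which is no ribosomal protein and carries a mitochondrial rRNA-like sequence in humans, took 10.1% of the counts in A and 11.9% in the 4.1-year liver, against 2.43% to 4.17% in the others. Its part in these departures was not tested.

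**Figure D5:**
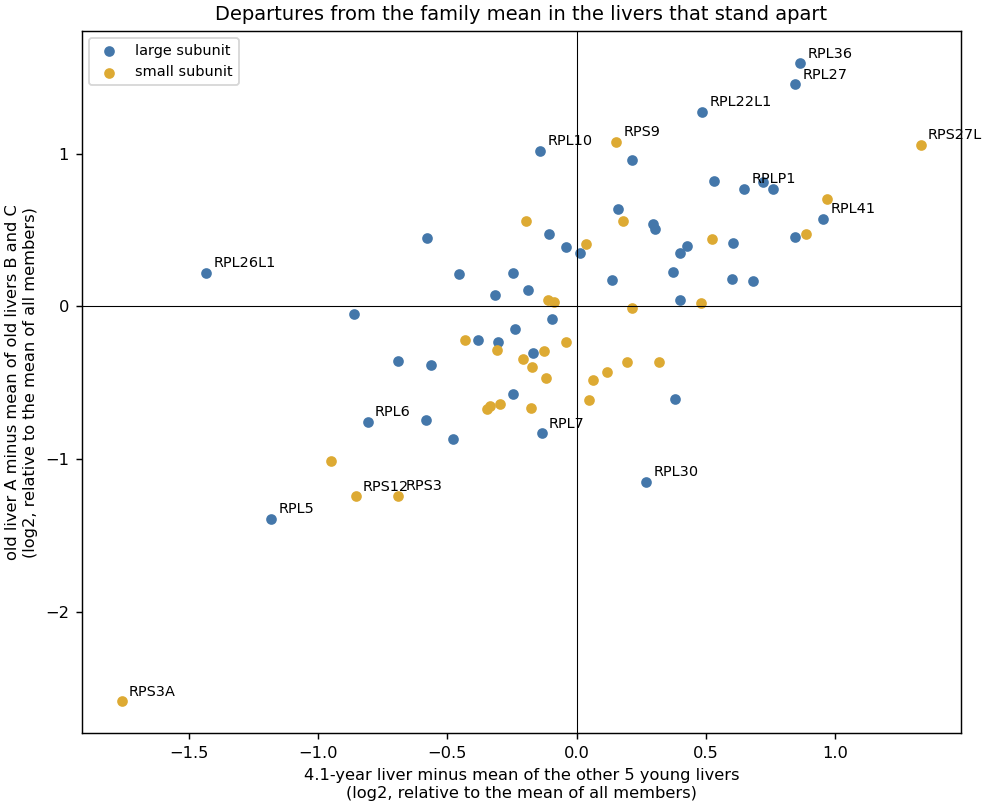
Departure of each of the 79 members from the family mean in the 4.1-year liver against the other 5 young livers (horizontal) and in A against B and C (vertical), both on the log2 scale, by subunit. RPS3A, RPL5, RPS12 and RPS3 lie low on both axes and RPL36, RPL27 and RPS27L high on both, with a Pearson correlation of 0.69.

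Ribosomal proteins under other symbols had fold changes within the range of the members. FAU, fused to a ubiquitin-like protein, was at 404 CPM in A, 571 in B and 674 in C, against 618, 851 and 1643 CPM in the young livers (log2 fold change -0.74, SE 0.35, edgeR FDR 0.186). GNB2L1, the scaffold RACK1, had -0.61 (edgeR FDR 0.205) and RPL36AL -0.61 (FDR 0.340). No gene of the 4 in this list passed, and the list median was -0.67 (-0.50 without A). Among 27 other mRNAs with a TOP sequence, mostly translation factors, edgeR called 0 in either direction, the median was -0.62 (-0.31 without A) and 25 were negative. At an unadjusted p under 0.05 it gave 4 lower and 1 higher, but the share of all genes at that level was not counted. Without A and the 4.1-year liver 7 of them were called lower (25.9%, against 11.7% of all genes), among them EIF3L, EIF3K, EEF1G, EEF1D and EIF4B, and 2 higher (7.41%, against 14.2%), NAP1L1 and TMSB4X.

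Lists of genes that make ribosomal RNA or assemble the subunits had medians above 0 with 9 livers, though close to 0 without A. Their difference from the ribosomal proteins was not tested. With 9 livers 11.7% of all genes rose and 3.65% fell, and the calls in these lists stand against those shares. Of 20 genes of RNA polymerase I, which transcribes ribosomal RNA, TAF1A, TAF1C and UBTF rose and none fell, with a median log2 fold change of 0.30 (0.06 without A, 0.15 without A and the 4.1-year liver). UBTF, the factor that keeps ribosomal DNA open, was at 67.8, 56.0 and 57.0 CPM in A, B and C, against 36.2 to 46.8 CPM in the young livers (0.53, SE 0.18, edgeR FDR 0.0959), and the groups did not overlap. Of 56 nucleolar factors RIOK1, NOL6, NOM1 and NOP56 rose (median 0.11, and 0.05 without A and 0.03 without A and the 4.1-year liver), and of 46 assembly and export factors of the large subunit 7 rose, among them DDX51, DDX55, RRP1 and RBM28 (median 0.13, and 0.04 and -0.0018 in these fits). RIOK1, a kinase that releases factors from the small subunit precursor, was at 32.9, 17.1 and 14.7 CPM in A, B and C, against 7.09 to 11.8 CPM (1.27, SE 0.28, edgeR FDR 0.0436). NOL6 was at 124, 100.5 and 72.4 CPM, against 46.2 to 66.1 CPM (0.85, SE 0.22, edgeR FDR 0.0541). In both genes every old liver was above every young one. The old and young livers overlapped, by contrast, for TAF1A, TAF1C, NOP56, DDX51, DDX55, RRP1 and RBM28.

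Of 15 chaperones of ribosomal proteins IPO4, an importin, rose (0.91, SE 0.24, edgeR FDR 0.0547), with a list median of -0.15, and of 17 ribosome rescue genes NPLOC4 and ZNF598 rose, with a list median of -0.14. Of 22 regulators of TOP mRNAs RPS6KB2, an S6 kinase, and EIF4EBP3, an inhibitor of the cap-binding protein, rose (1.20 and 1.05, edgeR FDR 0.0749 and 0.0778), with a list median of -0.04. In all 19 of 202 genes of these lists were called, all higher (9.41%, where 11.7% of all genes rose). In 10 of them, RPS6KB2 included, A was over 2 times the higher of B and C, as in TAF1A with 136 CPM in A, 15.5 in B and 18.5 in C. Only 9 of the 19 had every old liver above every young one, and RPS6KB2 and ZNF598 were not among these 9. The same count over all genes called was not made. Without A, edgeR called none of the 19 (lowest FDR 0.102, 7 at an unadjusted p under 0.05). Without A and the 4.1-year liver 40 genes of all these lists were called, 23 higher (11.4%, against 14.2% of all genes) and 17 lower (8.42%, against 11.7%).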

How the data were processed

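Liver RNA of 9 male naked mole-rats was sequenced as single reads on an Illumina HiSeq. The authors mapped the reads with STAR 2.4.1d to the public genome, kept those with 1 place, and counted them per gene of their own annotation with HTSeq, with a version and strand setting not given in the sources used here. Overlapping genes on opposite strands, and the read-through rows of RPL17 and RPL36A, are therefore uncertain. The deposited counts are whole numbers and not normalized. Rows with a date for a symbol (25, 0.133% of counts) and rows whose place depends on upper and lower case (93, 0.319%) were left out, which leaves 16221. Samples were grouped by their labels. No library pair agreed within sampling noise (lowest chi-square per degree of freedom 27.62).

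The age groups were tested with edgeR 4.0.16 under R 4.3.3 (TMM, filterByExpr, robust quasi-likelihood fit), without covariates, with Benjamini-Hochberg adjustment over all genes tested and FDR 0.1. The test was tried on simulated data first. CPM are TMM-scaled, with 0.5 added before log2. The members and lists were chosen with earlier results of these data known. By rule, values are given for members called, for the 3 with the most negative and the 3 with the most positive fold change, for those whose groups do not overlap, for paralogs, for a fixed list of members with known roles, and for the 3 that moved most up and down relative to the family. Of the other lists, genes called are named, up to 4 of a list. Genes named beyond that (EIF3L, EIF3K, EEF1G, EEF1D, EIF4B, NAP1L1, TMSB4X, RPS10, RPS3A and other extremes) were chosen after their values were seen. Alternatives were DESeq2 1.42.0, limma 3.58.1 voom, other scalings and filters, FDR 0.05 and leaving out livers. Some genes are not reported here by name. No sequence or position is printed, since no genome of the authors' build was used.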

Additional observations from a re-analysis of the deposited data

Results flagged for a closer look

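Dixon's criterion was applied to the 6 young livers for the 27 members chosen by rule, for the share of counts and for the ratio of large to small subunit counts. By it the 4.1-year liver stood apart from the others in 11 results. Its share of counts was not flagged. Its ratio of large to small subunit counts was 1.61. Of the members given by value it was far above the other young livers for RPL41 (1296 CPM), RPLP1 (671 CPM), RPL13A (463 CPM), RPLP2 (446 CPM), RPS27L (419 CPM), RPL36 (269 CPM), RPL30 (222 CPM), RPL21 (217 CPM), RPS24 (149 CPM) and RPL22L1 (73.3 CPM). Chance flags about 1 in 20 groups, and these values come from the same library. The old group, with 3 livers, was too small for this criterion.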

How the results depend on the processing

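RPL9 and RPL4 were the members called lower. The number called lower was 1 with upper quartile scaling and with no filter, 0 with library totals alone and at FDR 0.05, 7 with DESeq2, 8 with voom (and 2 higher), 5 without A and the 4.1-year liver (and 1 higher), and 0 to 3 with 1 liver left out. The median log2 fold change of the members stayed negative throughout, at -0.12 with voom, -0.13 without A and the 4.1-year liver, and -0.86 to -0.25 with 1 liver left out, and 71 to 79 members were then negative. Members with old livers below all young ones numbered 0 with library totals alone and 8 to 31 with 1 liver left out, the highest without C. The share of all genes below also changes with the livers kept, from 8.01% with 9 livers to 11.0% without A. It was not counted without C or with library totals alone, so the 31 members cannot be set against it. Members parted from the family numbered 34 without A and the 4.1-year liver and 6 to 22 with 1 liver left out. The difference in share was then 0.186 and -0.484 to 0.0569 percentage points.

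Over all genes 1885 were called, 23.8% of them lower. The counts were 3716 with library totals alone (6.49% lower), 2847 with DESeq2 (37.6%), 4580 with voom (45.1%), 420 at FDR 0.05, 3209 without A and the 4.1-year liver (45.2%) and 187 to 2933 with 1 liver left out. Genes of the other lists called numbered 56, 34, 54, 1 and 40 under the same settings, and 0 to 36 with 1 liver left out.

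Some members changed sign, and not only those near 0. With 9 livers 1 member was positive, and without A and the 4.1-year liver 18 were. RPL41, at -0.52 with 9 livers, was among these. The log2 fold change with library totals alone was 0.18 for RPL13A, 0.16 for RPL36, 0.12 for RPLP2 and 0.17 for RPS29. With voom it was 0.15 for RPL13A, 0.11 for RPL36, 0.099 for RPL41, 0.34 for RPLP2, 0.16 for RPS19 and 0.32 for RPS29. Without A and the 4.1-year liver it was 0.15, 0.11, 0.11, 0.34, 0.16 and 0.33 for the same genes. With 1 liver left out it ranged from -0.13 (without C) to 0.38 for RPLP1, -0.27 to 0.052 for RPL13A, -0.28 to 0.23 for RPL36, -0.42 to 0.11 for RPLP2, -0.66 to 0.053 for RPS19 and -0.39 to 0.25 for RPS29. The cause of these changes was not tested. No paired analysis was possible because the labels give the groups no shared replicate numbers. The animals are separate, but 3 old livers, of which 1 stands apart, limit every comparison.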
